A study of Homo sapiens with 6 samples.

Results

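Chromosome 6 carried 2850 of the 31569 regions (9.03%) in the deposited list of TTD peaks in HepG2 cells, that is, of stretches bound by the tandem Tudor domain of UHRF1. The regions were selected on the readout itself: each is a stretch where the authors called a TTD peak, and all peaks of the list on chromosome 6 were taken, with no further threshold. Their number, position and width are therefore a description of this list, and no test was made on them. The study pulled down native mononucleosomes of HepG2, an established line from a human hepatoblastoma, with a GST-tagged UHRF1-TTD in place of an antibody, a method called CIDOP. Its groups were TTD CIDOP, H3K9me2 ChIP and input, each from untreated HepG2 cells with 2 biological replicates, which makes 6 libraries. The list pools both TTD replicates and gives no replicate value or score for a peak, so the 95% Wilson intervals given with shares cover counting error only, and neighbouring peaks are not independent. The study states a minimum number of reads, but the read depth of each library is unknown here, and the H3K9me2 ChIP and input signals were not analysed here.

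UHRF1 recruits the maintenance DNA methyltransferase to newly replicated DNA, and its tandem Tudor domain reads histone H3 methylated at lysine 9, a mark of silent chromatin. The study is about the binding of this domain where H3K9me2/3 meets H3K4me1, the mark of enhancers. Chromosome 6 holds the major histocompatibility complex (MHC), a gene-dense region with the HLA genes that present peptides to T cells, as well as the largest cluster of histone genes and several families of liver enzymes and transporters.

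The sequences of 3 peaks show what lies under a call, and all are read from the plus strand of hg38. Capitals mark matches to TGTTTAC, the core that forkhead factors such as FOXA1 bind, or to CAAAGTCCA, a form of the site of the liver factor HNF4, each searched on both strands (GTAAACA and TGGACTTTG), and neither contains the other. The first 2 are the only peaks with both motifs in their central 300 bases: chr6:169767216-169767515 in ERMARD and chr6:54210201-54210500 in MLIP. They are followed by 150 bases, chr6:30765611-30765760, of the widest MHC peak. These windows were chosen after their values were seen, and a match is a description of letters, not a bound site.

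ERMARD peak centre: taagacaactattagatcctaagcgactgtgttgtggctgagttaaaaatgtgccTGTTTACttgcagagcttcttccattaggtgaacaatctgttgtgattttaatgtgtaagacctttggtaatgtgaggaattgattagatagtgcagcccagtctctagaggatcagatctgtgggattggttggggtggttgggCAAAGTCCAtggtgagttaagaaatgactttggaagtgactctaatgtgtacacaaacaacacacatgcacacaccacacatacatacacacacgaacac
MLIP peak centre: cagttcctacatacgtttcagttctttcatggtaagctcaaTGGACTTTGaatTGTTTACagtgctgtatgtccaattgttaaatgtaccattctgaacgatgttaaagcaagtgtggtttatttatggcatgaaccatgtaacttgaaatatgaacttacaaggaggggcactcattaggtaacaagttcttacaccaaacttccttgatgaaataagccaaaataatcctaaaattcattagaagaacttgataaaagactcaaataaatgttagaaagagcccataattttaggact
Widest MHC peak: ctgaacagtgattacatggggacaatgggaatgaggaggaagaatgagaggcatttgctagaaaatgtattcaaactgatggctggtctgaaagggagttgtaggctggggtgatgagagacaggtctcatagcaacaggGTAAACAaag

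Promoters in peaks are shown for 3 liver genes, because few TSSs of the chromosome lay in a peak and these genes are among them. The sequences are those of RefSeq (GRCh38.p14, from 250 bases before to 50 after the start), in which 38 of the 43 genes of the liver enzyme, GSTA and solute carrier lists had a promoter. Of these, 9 genes had a promoter wholly in a TTD peak, as did 104 of the 1624 genes with a RefSeq promoter on the chromosome. The 1624 include noncoding genes, whereas the liver lists hold protein-coding genes only. These lists were also chosen with earlier results of these data known, so the shares are not of like sets. GSTA2 (chr6:52763426-52763725, minus strand) and GSTA1 (chr6:52803767-52804066, minus strand) encode glutathione S-transferases that detoxify electrophiles in the liver. PLG (chr6:160701943-160702242, plus strand) encodes plasminogen, a plasma protein made by hepatocytes. None of the 3 holds either motif, so no letters are in capitals, and the GSTA1 and GSTA2 promoters are the same at 288 of 300 bases (96.0%).

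GSTA2 promoter: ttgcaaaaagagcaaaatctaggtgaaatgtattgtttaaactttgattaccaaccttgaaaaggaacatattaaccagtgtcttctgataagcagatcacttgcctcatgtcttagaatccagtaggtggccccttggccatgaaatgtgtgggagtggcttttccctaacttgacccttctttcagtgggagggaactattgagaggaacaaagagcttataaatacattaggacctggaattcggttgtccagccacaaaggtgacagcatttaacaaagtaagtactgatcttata
GSTA1 promoter: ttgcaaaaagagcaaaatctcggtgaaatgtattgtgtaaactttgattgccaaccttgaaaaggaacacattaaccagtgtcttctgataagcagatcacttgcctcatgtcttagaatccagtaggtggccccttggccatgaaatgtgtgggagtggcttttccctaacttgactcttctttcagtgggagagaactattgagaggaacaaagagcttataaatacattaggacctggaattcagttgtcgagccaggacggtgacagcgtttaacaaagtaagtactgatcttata
PLG promoter: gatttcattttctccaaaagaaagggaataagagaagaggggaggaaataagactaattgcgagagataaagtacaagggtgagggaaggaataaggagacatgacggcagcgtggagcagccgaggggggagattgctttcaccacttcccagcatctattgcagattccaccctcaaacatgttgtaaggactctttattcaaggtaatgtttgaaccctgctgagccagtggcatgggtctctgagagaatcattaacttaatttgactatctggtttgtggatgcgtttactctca

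Chromosome 6 was among the chromosomes with the most TTD peaks for their length. It held 16.7 peaks per Mb, behind chromosome 20 with 22.8 and chromosome 2 with 17.2, and 5.33% of its bases lay in peaks, again behind chromosome 20 (7.04%) and chromosome 2 (5.67%). Its neighbours in size, chromosomes 5 and 7, had 8.78 and 9.22 peaks per Mb and 2.63% and 2.59% of their bases in peaks. Over all other chromosomes together, the density was 9.84 peaks per Mb and the cover 2.89%. The peaks of chromosome 6 were thus about as dense as those of chromosome 2 and denser than those of chromosomes of like length. HepG2 cells have an abnormal karyotype, the list carries no correction for the copies of a region, and an effect of copy number on these densities cannot be told apart from one of binding.

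The median width of the peaks was 2395 bp (quartiles 1450 and 3850 bp), against 2230 bp (1360 and 3630 bp) over the other chromosomes together. This was not particular to chromosome 6, since the median was 2460 bp on chromosome 8 and 2390 bp on chromosome 2. Widths ran from 170 to 40800 bp, and 1253 peaks (44%) were between 2 and 5 kb wide. Peaks under 1 kb numbered 339 (11.9%) but held only 2.64% of the peak bases. The 88 peaks of 10 kb or more (3.09%, 2.51 to 3.79%) held 14.2% of the bases, and such peaks made up 2.22% of the list elsewhere, with 3.54% on chromosome 2 and 3.11% on chromosome 14. Only 33 of these 88 (37.5%) overlapped a protein-coding gene, against 49.7% of all peaks of the chromosome, and 3 lay over a TSS. Most of the widest TTD domains of the chromosome thus lay outside protein-coding genes.

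The widest peak of the chromosome, 40800 bp at 137705751–137746550, is also number 3 of the whole list. It covers parts of the long noncoding genes LINC03004 and LINC02539, and the nearest protein-coding TSS, 141063 bp from its midpoint, is that of TNFAIP3, an inhibitor of NF-kB signalling. A peak of 29160 bp at 137788531–137817690 lies in the same interval, 64103 bp from the TNFAIP3 TSS. GSTA2 has the second widest peak nearby, 29480 bp at 52718701–52748180, 30034 bp from its TSS. NOX3, a NADPH oxidase of the inner ear, is overlapped by a peak of 26340 bp at 155385131–155411470. A peak of 25750 bp lies on its upstream side, and one of 25220 bp lies between it and TFB1M, which encodes a mitochondrial rRNA methyltransferase. In introns, the widest were a peak of 24550 bp in NEDD9, a scaffold protein of cell adhesion, and one of 23790 bp in UTRN, which encodes utrophin. The remaining peaks among the 10 widest lay near ADGRF1 (22050 bp) and near CCN2 (19980 bp, over LINC01013), an adhesion receptor and a secreted matrix protein.

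**Figure D1:**
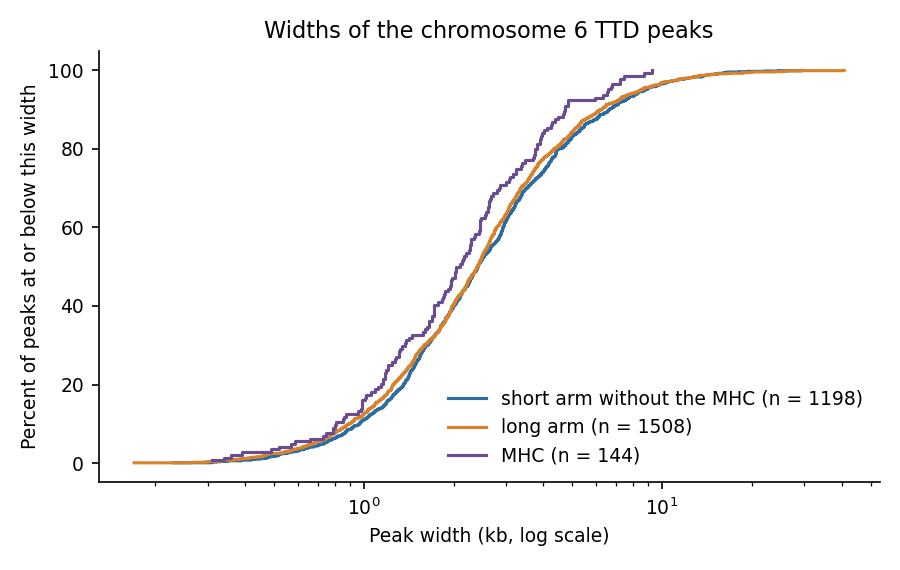
Cumulative percent of TTD peaks (vertical axis) at or below each width in kb (log scale), for the short arm without the MHC (1198 peaks), the long arm (1508) and the MHC (144). The arms nearly coincide with medians of 2415 and 2400 bp, and the MHC curve lies to the left with a median of 2070 bp and a maximum of 9220 bp.

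Over all peaks, exact copies of the central 31 bases on chromosome 6 were not commoner than for windows along the chromosome. Copies that differ in any base, and copies on other chromosomes, were not counted. The central 31 bases occurred at least 2 times on the chromosome in 8.98% of the peaks (7.99 to 10.1%), against 9.92% of all 300-base windows. Among peaks under 1 kb the share was 12.1% (9.04 to 16%), and among peaks of 5 kb or more it was 7.80% (5.66 to 10.6%). At least 10 copies were found for 4.67% of all peaks and 5.39% of the windows, but for 8.26% of the peaks under 1 kb (5.78 to 11.7%) and 3.12% of those of 5 kb or more (1.87 to 5.17%). Narrow and wide peaks thus had separate intervals at 10 copies or more, but overlapping ones at 2 or more, where that of the narrow peaks also held the share of all windows. The deposited list does not say how reads that map to many places were treated.

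The short arm, taken as the first 60 Mb, was denser in TTD peaks than the long arm. It held 1342 peaks, 47.1% of those of the chromosome (45.3 to 48.9%), on 35.1% of its length. Its density was 22.4 peaks per Mb with 7.16% of bases in peaks, against 13.6 per Mb and 4.35% on the long arm, which held 1508 peaks. Peak widths did not differ in the same way, with medians of 2390 and 2400 bp. The short arm is also richer in genes, with 10.3 protein-coding genes per Mb against 3.90, so that it had fewer peaks per gene (2.17) than the long arm (3.49). Counted per base, the short arm was the denser, and counted per gene, the long arm was.

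The lower density of the long arm came from its first 70 Mb. From 60 to 130 Mb there were 685 peaks, 9.79 per Mb with 2.84% of bases covered. Beyond 130 Mb there were 823 peaks, 20.2 per Mb with 6.93% covered, so the distal long arm was close to the short arm. On the short arm, each block of 10 Mb had between 19.2 and 24.3 peaks per Mb. On the long arm, the most sparse block ran from 90 to 100 Mb with 33 peaks, or 3.3 per Mb, and the block from 140 Mb held 23.2 per Mb. Gene density moved less than peak density between the 2 stretches of the long arm, with 3.37 genes per Mb in the sparse stretch and 4.803 beyond it. The part of copy number in these differences was not tested.

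**Figure D2:**
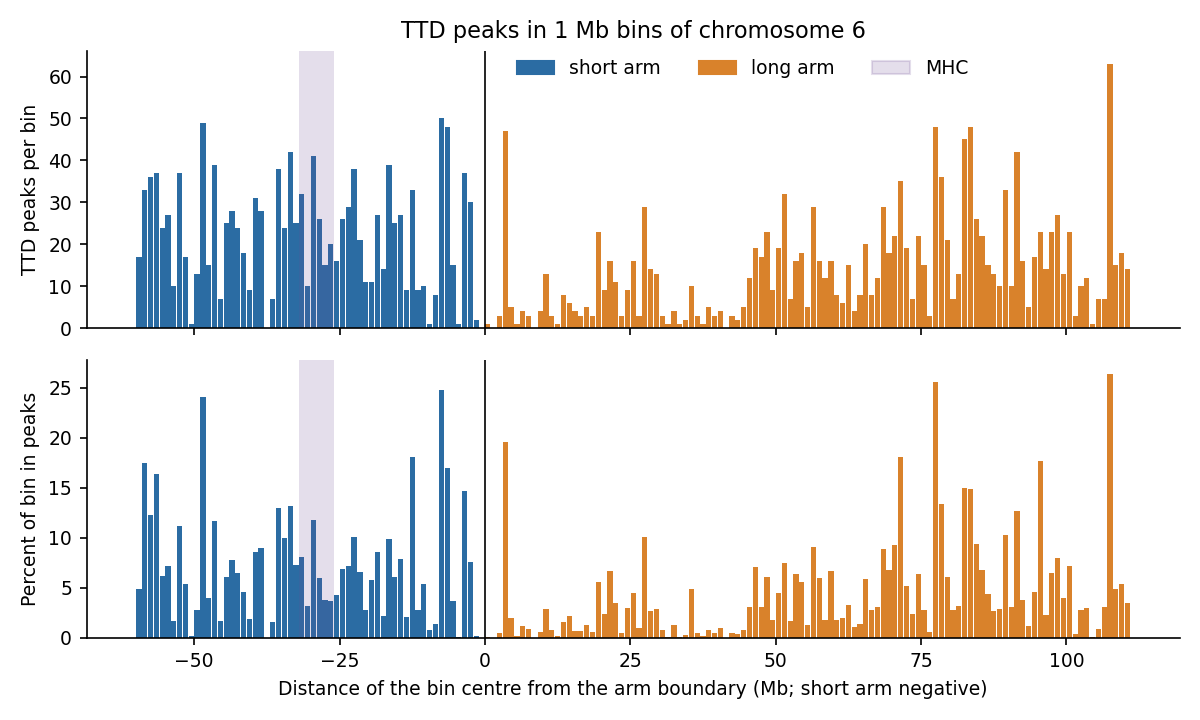
TTD peaks in the 171 bins of 1 Mb, as peaks per bin (upper panel) and percent of the bin in peaks (lower panel), against the distance of the bin centre from the arm boundary in Mb, with the short arm negative and the MHC shaded. Bars of the short arm and of the distal long arm are mostly high, those of the first 70 Mb of the long arm are mostly low, and the highest bar holds 63 peaks and 26.4% cover.

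Bins of 1 Mb differed widely in cover. The median bin held 14 peaks (quartiles 5.5 and 25) and 3.52% of its bases in peaks (1.34 and 7.18%). No peak was listed in 5 of the 171 bins, and 38 held 1 to 5 peaks. The 17 bins with the largest cover held 712 peaks, 25% of the total (23.4 to 26.6%), and 33.9% of the peak bases. Of these, 9 lay on the short arm and 8 on the long arm, and the lowest of them had 13.0% cover, just above 12.7% in the next bin. TTD peaks were therefore concentrated, but not on 1 arm.

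The bin with the largest cover, 26.4% with 63 peaks, starts at 167 Mb and holds AFDN, an adaptor of cell junctions, together with UNC93A and TTLL2. The bin from 137 Mb follows with 48 peaks and 25.6%, and its genes with the most peak bases are IFNGR1, the ligand-binding chain of the interferon gamma receptor, TNFAIP3 and IL20RA. Next is the bin from 52 Mb, with 50 peaks and 24.8% cover over genes that include PAQR8 and TRAM2, as well as GSTA1 and GSTA2. In the bin from 11 Mb, NEDD9, the fatty acid elongase ELOVL2 and SMIM13 lie under 49 peaks that cover 24.0%. Each of these bins holds peaks of 10 kb or more, 2 in the first, 5 in each of the next pair and 6 in the last.

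Lower in this order, the bin from 63 Mb stood out from the sparse stretch around it. It held 47 peaks with 19.6% cover over PHF3, EYS and PTP4A1, a tyrosine phosphatase, whereas the bin from 61 Mb had no peak. The bin from 131 Mb had 18.1% cover over ENPP1, EPB41L2 and ARG1, the urea cycle arginase of the liver. The bin from 47 Mb had 18.1% over TNFRSF21, CD2AP and PTCHD4, and the bin from 155 Mb had 17.7% over NOX3, TIAM2 and TFB1M in only 23 peaks. In the bin from 1 Mb, 17.4% was covered, with GMDS, an enzyme of GDP-fucose synthesis, as the single protein-coding gene with peak bases. The bin from 53 Mb closed the first 10 with 17% over LRRC1, ELOVL5 and GCLC, the catalytic subunit of the enzyme that starts glutathione synthesis.

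Cover was larger in bins with more genes. Spearman's rho between cover and the number of protein-coding TSSs was 0.558 over the 171 bins, and 0.53 between cover and GC content. On the short arm, over 60 bins, rho was lower, at 0.379 with the TSS number and 0.298 with GC content, and on the long arm, over 111 bins, it was 0.54 and 0.519. The 22 bins without a protein-coding TSS had a median cover of 0.645%, against 4.54% in the others. These are descriptions only, since the bins share the same libraries and adjoin each other, and what part TSS number and GC content each have was not tested.

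At a finer scale, TTD peaks formed runs that nearly filled some windows. Of 1709 windows of 100 kb, 688 (40.3%) held no peak base and 54 were covered to at least 30%. The window from 137700001 was covered to 81.4% by 4 peaks and holds no protein-coding gene with peak bases. The window from 155300001 followed with 77.2% over NOX3 and TFB1M, then that from 167200001 with 70.8% over UNC93A, and that from 52700001 with 70.2% over GSTA2 and GSTA1. The genes of windows and runs were named after their values were seen.

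Joining all peaks with under 10 kb between them left 1751 groups, of which 1226 were single peaks (43.0% of all peaks). At the other end, 62 runs of 5 or more peaks held 485 peaks (17%). The run with the most covered bases spans 170 kb at 47042801–47213280, where 15 peaks cover 75% and no protein-coding gene is overlapped. The run with the most peaks, 23, spans 195 kb at 63345471–63540330 and ends in PTP4A1. A run of 160 kb at 167189611–167349680 overlaps UNC93A and TTLL2, with 19 peaks and 70.1% cover. NEDD9 is overlapped in part by a run of 151 kb at 11316521–11467800 (14 peaks, 72.7%) and by another at 11201311–11302020 (13 peaks, 56.3%). TFB1M and NOX3 are overlapped in part by one of 108 kb at 155311011–155419120 (10 peaks, 87.0%). The run over GSTA2 and GSTA1, 112 kb at 52718701–52830570, is covered to 81.9% by 8 peaks. ADGRG6, an adhesion receptor, is overlapped in part by a run of 16 peaks with 66.9% cover at 142252931–142380810. The 12 runs with the most covered bases spanned from 81.3 to 195 kb, some over liver genes and some with no protein-coding gene at all.

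Long stretches had no TTD peak. The longest, 2468580 bp at 58298931–60767510, spans the centromere between the last peak of the short arm, beyond PRIM2, and the first of the long arm, before KHDRBS2, and 20.3% of it is unsequenced. The next, 2251780 bp at 67363751–69615530, contains ADGRB3, a synaptic adhesion receptor, and ends before COL19A1. KHDRBS2, a neuronal RNA-binding protein, lies in a stretch of 1723290 bp without a peak. RIMS1, a protein of the presynaptic active zone, lies in one of 1578000 bp between OGFRL1 and a peak in KCNQ5. The fifth, 1325320 bp, starts at a peak in EYS and includes the TSS of that gene. In all, 13 gaps exceeded 1 Mb, and the 5 longest lay on the proximal long arm or at its edge.

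The MHC, from 28 to 34 Mb, did not stand apart from its surroundings in peak density. It held 144 peaks, 5.05% of those of the chromosome (4.31 to 5.92%), on 3.51% of its length, or 24.0 peaks per Mb. The 6 Mb before it held 22.7 per Mb, the 6 Mb after it 23.5, and the short arm without it 22.2. Cover was 6.08% in the MHC, 7.51% before it, 6.30% after it and 7.28% on the rest of the short arm. MHC peaks had a median width of 2070 bp, against 2415 bp on the rest of the short arm, 2890 bp in the 6 Mb before and 2020 bp in the 6 Mb after, and none reached 10 kb. At the edges of the window, the first peak inside was 28020321–28022190 and the last before it 27887811–27890930, while the last inside was 33906791–33908750 and the first beyond it 34272851–34274820.

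Within the MHC, class I and class II differed most. The part from HLA-F to MICB, which contains the class I genes, held 60 peaks, 33.6 per Mb with 9.18% cover. The class III part, from MICB to HLA-DRA, held 24 peaks, 25.8 per Mb with 6.62%. The class II part, from HLA-DRA to HLA-DPB1, held 5 peaks, 7.69 per Mb with 1.25%. The outer parts were in between, with 20.9 peaks per Mb each and 5.59% cover on the side of the short arm end and 3.83% on the other. These borders were set at genes after the values were seen. The bins show the same, with 41 peaks and 11.8% cover in the bin from 30 Mb, where TRIM10, TRIM26 and TRIM40 had the most peak bases, and 15 peaks and 3.79% in the bin from 32 Mb.

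The widest MHC peak, 9220 bp at 30764461–30773680, lies over the noncoding gene HCG20 and 24523 bp from the TSS of IER3, an early response gene. A peak of 7240 bp at 30756241–30763480 adjoins it. The second widest, 8710 bp at 30854041–30862750, lies 18025 bp from the TSS of DDR1, a collagen receptor. Peaks of 7470 and 7250 bp lie 38201 and 27591 bp from the TSS of GPX6, a glutathione peroxidase. All 5 of the widest MHC peaks thus lay outside protein-coding genes.

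Few genes of peptide presentation had a TTD peak. Over chromosome 6 as a whole, 492 of 1051 protein-coding genes (46.8%) had a peak in the gene body and 387 (36.8%) had one within 5 kb of the TSS. The genes of presentation are short, with median lengths of 10.8 kb in class I, 8.92 kb in class II and 14.6 kb in antigen processing. Of all genes from 8.83 to 24.8 kb long, 34.6% had a peak in the body. How well reads map to these genes was not tested. Of the 8 class I genes, HLA-F alone had one in its body, with 8.32% of it in a peak, and HLA-B, HLA-C, HLA-E and HLA-G had none. MICA, a stress ligand of NK cells, had none in its body but a peak 434 bp from its TSS. Of 13 class II genes, HLA-DMA, which helps to load peptides, had 10.8% of its body in a peak, and HLA-DRA, HLA-DRB1, HLA-DQA1 and HLA-DPA1 had none. For HLA-DRB1 and HLA-DQA1 the nearest peak was 161928 and 168552 bp from the TSS. Of 5 genes of antigen processing, PSMB9, an immunoproteasome subunit, had 10.6% of its body in a peak, and the transporter gene TAP1 had a peak 985 bp from its TSS.

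Genes of the complement system in class III were covered far more. C4A and C4B, the genes of complement component 4, had 48.2% and 47.6% of their bodies in peaks, CFB, complement factor B, had 44.1% and C2 had 16.9%. The TSSs of C4A, C4B and CFB each lay in a peak. The cytokine genes TNF, LTA and LTB between these and class I had no peak, with the nearest 38146, 41657 and 31189 bp from their TSSs, and neither had AIF1 in its body. In this list, 4 of 8 genes had a peak, near the 46.8% of all genes, and all 4 are complement genes. They are 6.44 to 47.9 kb long and the others 1.81 to 2.77 kb, and the list was divided after the values were seen. Of all genes of up to 8.82 kb, 11.4% had a peak, so a part of gene length in this contrast was not tested. C4A and C4B are near copies: their TSS peaks, 6540 and 6570 bp wide, share 98.6% and 98.1% of their 31-base words. Whether the reads there can be assigned to 1 of the genes was not tested. The GSTA1 and GSTA2 peaks at the TSS share less, 34.7% and 22%.

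In the MHC as a whole, 49 of 204 genes (24.0%) had a peak, against 210 of 415 (50.6%) on the rest of the short arm. MHC genes are short, with a median length of 8.75 kb against 24.8 kb over the chromosome, and the share of genes with a peak rose with length from 11.4% in the shortest of 4 length classes of equal size to 82.1% in the longest. Within the shortest class, 9.80% of MHC genes (10 of 102) and 12.4% of the other genes (20 of 161) had a peak. In the next class the shares were 32.9% (27 of 82) and 35.4% (64 of 181), and in the one after that 63.2% (12 of 19) and 58.8% (143 of 243). The longest class held 1 MHC gene, without a peak. In the 3 classes before it, the shares in and outside the MHC were thus within each other's counting error. The median distance from peak midpoint to TSS was 9286 bp in the MHC, against 49232 bp for the chromosome. Of the 144 MHC peaks, 12 (8.33%, 4.83 to 14.0%) lay over a TSS. The MHC is dense in genes, with 204 of the 1051 protein-coding genes on 3.51% of the length of the chromosome. The part of gene density in these values was not tested. Counted per gene, 6.37% of the MHC TSSs lay in a peak, near the 5.80% of all genes.

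Of 24 genes of liver enzymes and plasma proteins, 13 (54.2%) had a peak, against 46.8% of all genes, and 11 (45.8%) had one within 5 kb of the TSS, against 36.8%. The TSS lay in a peak in 2 of them, and in 5.80% of all genes. As a list, these genes were near the share of all genes, and single members were covered far more. ENPP1, an enzyme that makes pyrophosphate, had 39.8% of its 87.1 kb in 7 peaks, PLG 15.2%, the aldehyde dehydrogenase ALDH8A1 14.6% and its relative ALDH5A1 14.3%. Around the PLG TSS, 91.9% of the 10 kb window lay in 2 peaks, which include the promoter printed above. ARG1 had 7.91% of its body in peaks, and its RefSeq promoter (131572976–131573275) lay wholly in a peak, whereas its GENCODE start, far upstream, was 6809 bp from the nearest peak. No peak overlapped LPA, which encodes apolipoprotein(a), the pantetheinases VNN1 and VNN2, or the sterol hydroxylase CYP39A1.

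The GSTA family was split. GSTA1 and GSTA2 had 89.99% and 88.72% of their bodies in peaks and both TSSs in a peak, and GSTA3, GSTA4 and GSTA5 had no peak in the body, although 1 lay 2388 bp from the TSS of GSTA5. Solute carriers of liver and kidney had peaks in 9 of 14 genes (64.3%, against 46.8% of all genes), with 4 TSSs in a peak (5.80% of all genes). SLC22A7, a liver transporter of organic anions, had 35.6% of its body in peaks, and the phosphate transporter relatives SLC17A2 and SLC17A3 had 35.1% and 22.1%. SLC17A4, SLC22A16, SLC29A1 and SLC35A1 had no peak in the body.

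The other lists lay on both sides of the 46.8% of all genes with a peak. Of 32 transcription factors of development, 10 (31.3%) had a peak and 1, ESR1, had its TSS in one. JARID2 had 11.8% of its body in peaks, PPARD 11.4%, HIVEP2 10.4% and FOXO3 6.96%, and SOX4, TFAP2B, SIM1 and EYA4 had none. Of 20 genes of signalling and growth, 12 (60%) had a peak. The median length of this list was 119 kb, in the longest of the 4 length classes, where 82.1% of genes had a peak. TNFAIP3 led with 27.8% of its body in peaks, before the kinase genes MAPK14 (22.9%) and SGK1 (18.6%) and the phosphatase gene PTPRK (15.2%). In the same list VEGFA, EDN1, PIM1 and CDKN1A had none in the body, but the TSS of CDKN1A was 40 bp from a peak. Of 16 neuronal genes, 7 (43.8%) had a peak and none had one within 5 kb of the TSS, against 46.8% and 36.8% of all genes. Their median length was 208 kb, and 82.1% of the genes in the longest of the 4 length classes had a peak. The shares of the lists were not matched for gene length. The largest cover among the neuronal genes was 11.4% in SYNJ2, followed by 2.93% in GABRR2, 1.52% in NKAIN2 and 1.39% in HTR1E, while GRM4, OPRM1, RIMS1 and SNAP91 had none. Of 7 butyrophilins, a family of immune regulators, 4 (57.1%) had a peak: BTN2A1 (20.8%), BTN3A1 (12.6%), BTN3A3 (8.49%) and BTN2A2 (3.68%).

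**Figure D3:**
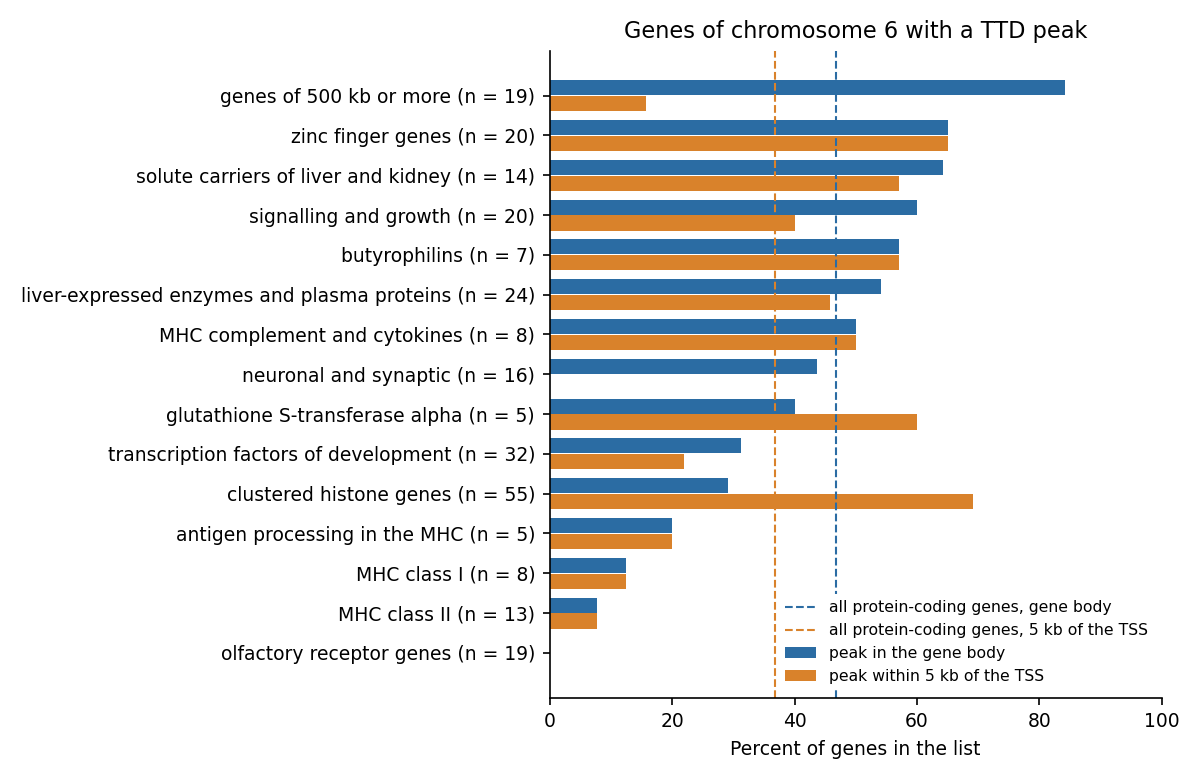
Percent of genes with a TTD peak in the gene body (blue bars) or within 5 kb of the TSS (orange bars) for each gene list, with the number of genes, and the same for all 1051 protein-coding genes as dashed lines at 46.8% and 36.8%. Genes of 500 kb or more had the highest share in the body (84.2%), histone genes the highest near the TSS (69.1%), and olfactory receptor genes had no peak in either.

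Families in clusters differed among themselves, and these lists were drawn by gene name after the first values were seen. Of 55 histone genes on the short arm, which are mostly single short exons, 16 (29.1%) had a peak in the body, against 46.8% of all genes. Their median length was 0.495 kb, and 11.4% of the genes in the shortest of the 4 length classes had a peak. Within 5 kb of the TSS, 38 histone genes (69.1%) had one, against 36.8% of all genes, and 10 TSSs (18.2%) lay in a peak, against 5.80%. Among them, 9 lay wholly in peaks, for example H3C1 and H4C1 in a peak of 6160 bp and H2BC12 and H2AC12 in one of 4150 bp. None of the 19 olfactory receptor genes, most of which lie in a cluster on the distal side of class I, had a peak in the body or within 5 kb of the TSS, and OR2I1P came nearest at 8284 bp. Of 20 zinc finger genes, 13 (65%) had a peak in the body and 13 within 5 kb of the TSS, above the shares of all genes, led by ZSCAN31 with 34.9% of its body in 5 peaks and ZSCAN12 with 24.6%. Most histone and zinc finger genes thus had a peak within 5 kb of the TSS, and no olfactory receptor gene did.

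Among genes of 20 kb or more, cover of the body was largest in GLYATL3, a member of the glycine acyltransferase family, where 80.0% of 28.2 kb lay in 2 peaks. UNC93A followed with 73.3%, GCM1, a transcription factor of the placenta, with 64.5%, TTLL2 with 62.6% and NOX3 with 61.0%. NEDD9 had 54.3% of its 199 kb in 20 peaks, SMPDL3A 50.3% and NRSN1 50.2%, and C4A and C4B completed the first 10. UNC93A, TTLL2, NOX3 and NEDD9 among them are overlapped by the runs described above.

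Very long genes differed from gene to gene. Of 19 genes of 500 kb or more, 16 (84.2%) had a peak, close to the 82.1% of the longest of the 4 length classes and above the 46.8% of all genes. Only 3 (15.8%) had one within 5 kb of the TSS, against 36.8% of all genes. PTPRK had 15.2% of its body in 25 peaks, SUPT3H 14.7% in 25 and CDKAL1 14.6% in 32, the most in any gene of the chromosome. ADGRB3, KHDRBS2 and RIMS1, all expressed in neurons, had no peak, and the glutamate receptor gene GRIK2 and the potassium channel gene KCNQ5 had 1 each, at 0.190% and 0.246% of the body. The long genes without or almost without TTD peaks lay between 60 and 130 Mb, in the sparse stretch of the long arm. PTPRK, the long gene with the largest cover, also lies in that stretch.

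Most peaks lay away from protein-coding TSSs, on a chromosome with 6.15 protein-coding genes per Mb. In the 500 bp at these TSSs, a mean of 6.54% lay in peaks, against 5.33% of the whole chromosome. Of the 2850 peaks, 55 (1.93%, 1.49 to 2.503%) lay over a protein-coding TSS. These were wide, with a median of 4400 bp against 2395 bp for all. A further 222 (7.79%) touched an exon, 1140 (38.2 to 41.8%) lay in introns only, 571 (20.04%) lay outside protein-coding genes but over a gene of another type, and 862 (30.2%) lay outside any gene. Introns were thus the commonest single class, but 49.7% of the peaks overlapped a protein-coding gene, so more peaks lay outside these genes than in introns only. Gene bodies took up 46.5% of the peak bases and 42.2% of the chromosome, and coding exons 0.715% and 0.994%. On the short arm 43 peaks (3.20%) lay over a TSS, and on the long arm 12 (0.796%). From midpoint to nearest protein-coding TSS, 64 peaks (2.25%) were under 1 kb away, 468 (16.4%) from 1 to 10 kb, 1451 (50.9%) from 10 to 100 kb and 867 (30.4%) beyond that, and the median of 49232 bp compares with 45214 bp on the other chromosomes. With TSSs of genes of any type, the share within 10 kb was 37.8% in place of 18.7%.

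Cover around the TSS differed in level between gene groups. For all 1051 genes, a mean of 6.54% of the central 500 bp lay in peaks, against 11.9% of the flanks from 1 to 2.5 kb, and 61 TSSs (5.80%) lay in a peak. The 43 liver enzymes, GSTA genes and solute carriers had 19.4% at the TSS and 24.0% at the flanks, with 8 TSSs in a peak (18.6%). The 55 histone genes had 18.6% and 24.8%. Over all genes and over the histone genes, cover was lower at the TSS than on both sides. In the liver group, cover was 20.9% from 1 to 1.5 kb upstream and 21.1% in the 500 bp upstream of the TSS. Each of these windows rests on 10 genes. From 1 to 1.5 kb downstream, cover was 26.2% and rests on 12 genes, so little can be read from the shape of this group. The 32 developmental factors had 3.43% at the TSS and, within 2.5 kb, more than that only on the upstream side, with 10.5% from 1 to 1.5 kb upstream and 3.13% at the same distance downstream. The 204 genes of the MHC had 6.72%, with 12.5% from 1 to 1.5 kb upstream and, downstream, 7.61% from 1 to 1.5 kb and 5.22% from 2 to 2.5 kb. For the developmental factors, the values downstream rest on 1 gene in each window within 2.5 kb and those from 1 to 1.5 kb upstream on 5 genes, so little can be read from their shape. Histone genes lie close together, so a peak is counted at several of them.

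**Figure D4:**
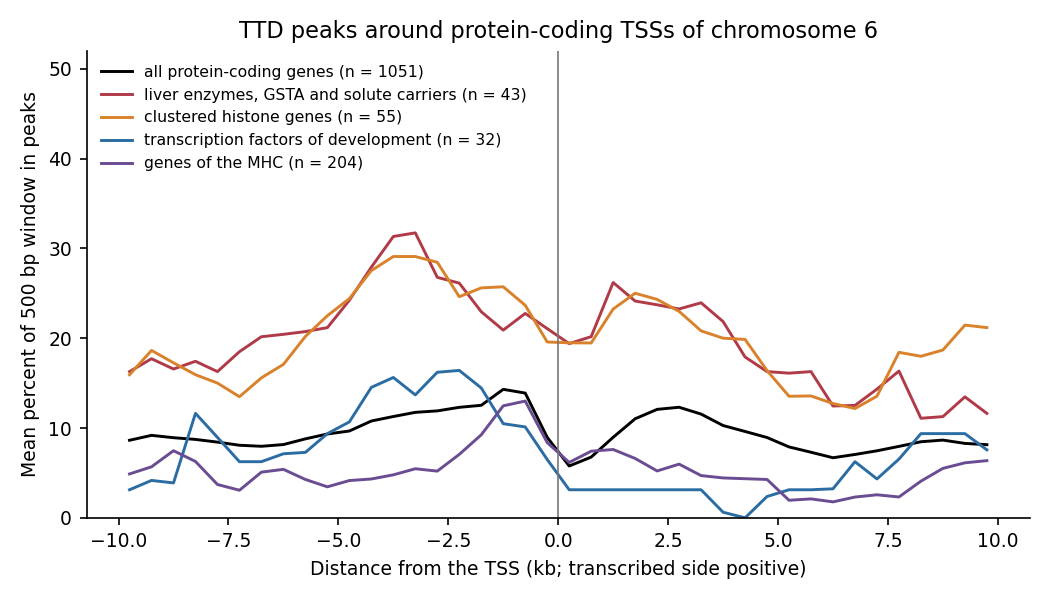
Mean percent of 500 bp windows in TTD peaks (vertical axis) against distance from the TSS in kb, transcribed side positive, for all protein-coding genes of chromosome 6 and 4 groups of them, with the number of genes in each. Liver and histone genes run above all genes at the TSS (19.4% and 18.6% of the central 500 bp, against 6.54%), and developmental factors below (3.43%).

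The peaks were richer in G and C than the chromosome. Windows of 300 bases wholly in peaks had a median GC content of 41.7%, against 38.7% for all windows. The median over whole peaks was 42.3%, beside 39.6% for the whole sequence taken as 1 stretch, and the order was the same on the short arm (43.2% against 41.7%) and the long arm (41.3% against 38.5%), but hardly in the MHC (45.6% against 45.0%). GC content fell with width, from 44.5% in peaks under 1 kb to 40.7% in those of 10 kb or more. The median ratio of observed to expected CpG over the peaks was 0.197, taken over whole peaks, so an island inside a wide peak would not show in it.

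CAAAGTCCA, the HNF4 form shown in the printed windows, lay in the central 300 bases of 34 peaks (1.19%, 0.855 to 1.66%), against 0.377% of all 566915 windows of that length. In the 300 bases just before and just after the peaks, the shares were 0.281% and 0.456%. Over all 27634 windows wholly in peaks, the share was 0.865% (0.762 to 0.981%), within the interval of the centres. The share was 1.23% in the windows 300 bases to either side of the centre and had fallen to 0.421% and 0.281% at 3 kb. It was largest in peaks under 1 kb (2.36%, 1.20 to 4.59%) and smallest in those of 5 kb or more (0.445%, 0.122 to 1.61%). TGTTTAC, the forkhead core, lay in the central window of 174 peaks (6.11%, 5.28 to 7.04%), against 4.98% of all windows, with 5.16% before and 4.98% after the peaks. For the forkhead core, windows wholly in peaks gave 5.70%. The HNF4 letters thus were commoner in peaks than along the chromosome, with no clear difference between the centres and the peaks as a whole, and the forkhead letters only slightly so, while the large majority of centres held neither.

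**Figure D5:**
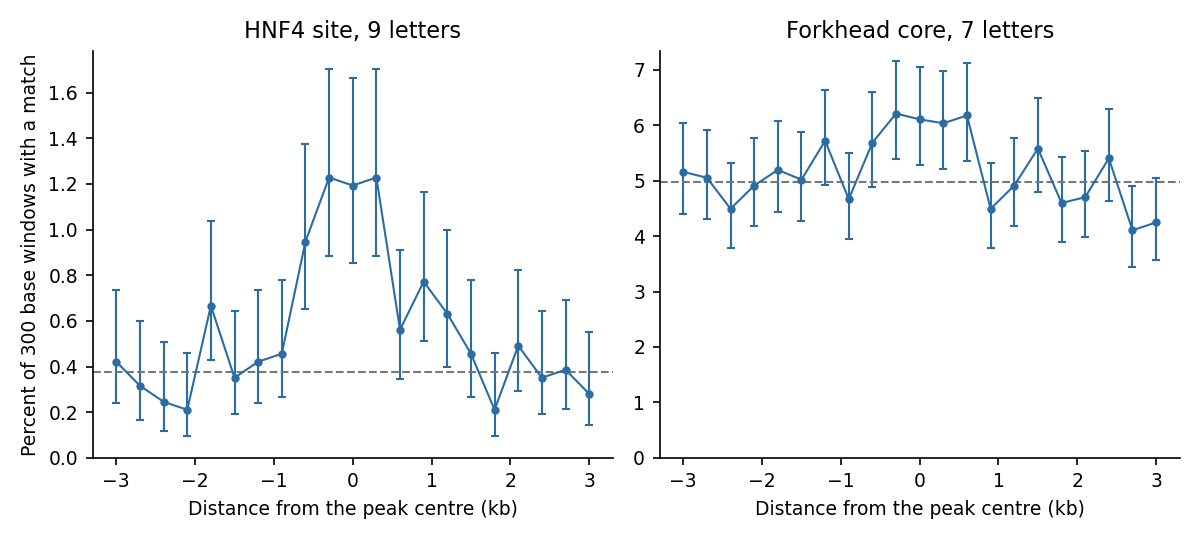
Percent of 300-base windows with a match to CAAAGTCCA (left) or TGTTTAC (right) against distance from the peak centre in kb, over 2850 peaks, with 95% Wilson intervals as bars and the share of all windows of the chromosome as dashed lines (0.377% and 4.98%). The left panel is highest within 300 bases of the centre (1.19 to 1.23%). The right panel is at 6.11% at the centre and is highest, at 6.21%, in the window 300 bases before it.

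Promoters in peaks seldom held these letters. Of 2083 RefSeq promoters of the chromosome, 118 lay wholly in a peak, and 3 of these (2.54%, 0.868 to 7.21%) held CAAAGTCCA, against 10 of all promoters (0.480%). They belong to TRIM40, UNC5CL and CCR6, a chemokine receptor gene, and were named after the values were seen. TGTTTAC was found in 5 of the 118 (4.24%) and in 85 of all (4.08%). None of the liver genes with a promoter in a peak, GSTA1, GSTA2, PLG and ARG1 among them, had either motif in this window, which says only that these letters are not in it.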

How the data were processed

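TTD CIDOP, H3K9me2 ChIP and input libraries of HepG2 cells were sequenced. The authors trimmed reads with Trimmomatic 0.38, checked them with FastQC 0.72, mapped them to hg38 with HISAT2 2.2.1, computed coverage with deepTools 3.3.2 and called broad peaks on the mean of both TTD replicates with MACS2 2.1.1. Blacklisted regions were taken out and the peaks curated manually by the authors. The deposited values are positions and widths of peaks in bp, with no score, and the depth of each library is unknown. The width equals end minus start in all 31569 cases.

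Peaks of chromosome 6 were compared by interval arithmetic with protein-coding genes of GENCODE release 44 (1 TSS a gene) and the hg38 sequence. The arm boundary (60 Mb) came from general knowledge, and a peak was placed by its midpoint. Cover is the percent of a stretch in peaks. Shares carry 95% Wilson intervals, and no significance test was made. Motifs were searched on both strands. RefSeq promoters were matched by symbol. Of 25 listed liver genes, 24 were found, and ESR1 is in 2 lists.

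Genes were named by rule: those of the 10 widest peaks, the 10 bins with the largest cover (up to 3 each), the 10 genes of 20 kb or more with the largest cover, the 5 widest MHC peaks, up to 4 members of each list with and 4 without a peak, the 3 genes of 500 kb or more with the highest and the 3 with the lowest cover, and the 5 longest stretches without a peak. Other genes were chosen after their values were seen, and some genes and sequences under the rule are not reported here. Members and lists were chosen with earlier results of these data known. Alternatives changed the peaks counted, joining, arm boundary, MHC window, bins, gene set, overlap, distance and motif window. The interval functions were tested on simulated data. Python 3.11.15, numpy 2.4.6, scipy 1.17.1 and matplotlib 3.10.9 were used. The H3K9me2 ChIP and input signals were not analysed here.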

Additional observations from a re-analysis of the deposited data

How the results depend on the processing

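Of 28 alternatives to 11 results, 22 were planned and 6, on the motifs and the ratio of the arms, were chosen after seeing the data. In 16, the value stayed within the counting interval of the reported one, or, for peaks per Mb and the ratio of the arms, within 1.5 times of it. With only the 1526 peaks at least as wide as the median of the whole list, the density fell to 8.93 peaks per Mb and the cover to 4.27%, by construction, the 17 most covered bins held 30.5% of the peaks, and CAAAGTCCA lay in 0.786% of the central windows. Without unsequenced bases, cover was 5.36%. The MHC taken as 29 to 33 Mb held 3.23% of the peaks, and bins shifted by 0.5 Mb gave 22.9% in the 17 most covered. With genes of any type, 69.8% of the peaks overlapped a gene and 37.8% lay within 10 kb of a TSS, and from the nearest peak edge 20.8% lay within 10 kb of a protein-coding TSS, against 49.7% and 18.7% as reported. In the central 200 bases, CAAAGTCCA was found in 0.772% and TGTTTAC in 4.25% of the peaks, since shorter windows hold fewer letters. For the other changes the cause was not tested. The share of the short arm ranged from 47.0% to 47.1% in its 4 alternatives. The density of the short arm was 1.64 times that of the long arm, 1.65 times with the wider peaks, and 1.11 times that of the long arm beyond 130 Mb.

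No paired analysis was possible because the pooled list has no replicate columns, and no result came from a test. The unknown depth, the hand curation and the lack of a score limit each statement on a missing peak to the authors' cutoff.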
